A study of Drosophila melanogaster with 3 samples.

Results

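Chromatin carrying the zinc-finger protein Ouib fused to GFP was precipitated from whole fruit fly prepupae, and 1363 of the 5048 reproducible binding summits (27%) lay in introns a short way from a gene start. These summits were taken from the authors' optimal peak list on the dm6 build by position alone. A summit is the single base of highest signal in a peak. It was kept when it lay inside the body of a protein-coding gene, in no coding sequence or untranslated region of any transcript, and more than 500 but at most 5000 bp from the nearest start of a protein-coding transcript. The animals came from a transgenic Drosophila melanogaster line, strain CG11762-GFP, that stably expresses the fusion protein with GFP at its C terminus. They were prepupae of mixed sex and unknown age, and an anti-GFP antibody was used. The series holds 1 such group with 3 biological replicates, no other genotype and no treatment. The promoter that drives the fusion and the cells that make it are not given in the labels.

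Ouib (ouija board, CG11762) is a transcription factor of the ZAD zinc-finger family, known from the prothoracic gland, where it acts in the synthesis of the steroid hormone ecdysone. Introns close to a gene start often hold enhancers and alternative promoters, and the first intron is a common place for both. In the compact fly genome many genes have several starts, so that an intron of one transcript can lie upstream of the start of another. Whole animals were used, so a strong signal in few cells and a weak signal in many cannot be told apart.

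The centres of the strongest of these summits were short, A- and T-rich stretches. The 30 bases around the summit are shown for the 12 strongest outside one chromosome arm that is not shown, because they carry the base composition that the later results turn on. They are from the NCBI RefSeq copy of the dm6 assembly, plus strand, named by host gene, and capitals mark runs of 6 or more A or T.
ush chr2L:481044-481073: ctgaaaagtttaagTTTTATTTTTcttcac
CG11050 chr2L:6612696-6612725: AAAATTAATAcaagattagattttgtattg
Lk6 chr3R:11761031-11761060: agtggcacataaactaaacgtatttcactg
CG32772 chrX:4910365-4910394: ggTTATAAAActaacaaaacagatctaact
CG9663 chr2L:3302184-3302213: aacacatacgacAAATTAcagtatctacat
Trl chr3L:14759498-14759527: tactggacTATTTTTTccattggctagttt
CG4496 chr2L:7188601-7188630: cttcaatgaaatgccAAAAAAAAgATAATT
CG3726 chrX:5918900-5918929: AAATATATAggttattgagcaacAAAATTA
chif chr2L:16351259-16351288: cTATTAATATTAcaaattcaaattgcacat
CG9663 chr2L:3302388-3302417: ATATATTgtaaagacAATATTTcTTTTATA
LpR2 chr3R:25738160-25738189: TTTTTAATgtcATATATAgcacgccaaaaa
Tlk chrX:3742217-3742246: agTTTTAATcaagatagATTTTTTATTAca

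Of the 1363 summits, 952 (69.8%) had such a run within these 30 bases, against 43.8% of stretches of the same length 1000 bp to each side. Over all 5048 optimal summits the share was 68.4%. The strongest summit in each of 9 gene lists described further on, not shown above, is given for the same reason.
aop chr2L:2164967-2164996: TTAAATgTTTATATgtccaatttcaggaac
neur chr3R:9031996-9032025: cttttgacAAATAAAActattccagtgctg
Dif chr2L:17430231-17430260: TTAAAATATTAATTTTAAcattttctttaa
dlp chr3L:14634430-14634459: gctataagagTTATTTAAAActgttaagga
crb chr3R:24296068-24296097: aaatggaatttgtaatgttgttattgtgtt
ckd chr3L:3259800-3259829: agtaattggaagcatagcaagacagtctat
Eip78C chr3L:21253876-21253905: cttgAAAATATgcgatggaaatcgaaagta
mew chrX:13234238-13234267: taatacactgagaaaaacaggtgattatgc
fru chr3R:18436711-18436740: atgttacAAATAAgttaagtgaagtgaaaa

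Of all 21 stretches, 17 held a run, while those of Lk6, crb, ckd and mew held none. Their G + C content ranged between 6.67% in Dif and 36.7% in Lk6 and ckd. The TATA box letters TATAAAA, on either strand, were present in the 200 bp around 6 of the 21, and a run of 8 A in 4. None of the 14 short elements searched was present at all of them, and 5 had none of the 14.

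The base composition of all 1363 intronic summits had the form of a narrow A- and T-rich centre between G- and C-richer shoulders. The 200 bp around the summit averaged 34.4% ± 6.2 G + C (SD over 1363 summits), against 41.1% ± 6.27 in windows 1000 bp to each side, and 1088 summits (79.8%) were lower than their own flanks. Taken from each replicate's own best summits, the difference of summit minus flank was −6.11, −6.71 and −5.89 percentage points in replicates 1, 2 and 3. It averaged −6.24 ± 0.425 (SD, n = 3), lower in 3 of 3 replicates (exact sign-flip permutation test, two-sided, p = 0.25, the smallest that 3 replicates allow). In steps of 50 bp, the content was 31.3% at the summit, 45.1% at 300 bp to the left and 45.2% at 300 bp to the right, and 41.0% and 40.3% at 700 bp. The shoulders were thus higher than the sequence farther out, and the centre lower than both.

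The fall at the centre was of similar size in introns farther from a start and larger at promoters. Deep intronic summits, over 5000 bp from any start, had a summit minus flank difference of −5.94 ± 0.690 percentage points, and promoter summits, within 500 bp of a start, had −8.56 ± 1.04 (SD, n = 3 each). The flanks of promoter summits were themselves richer in G + C, at 44.1%. At the summit itself the replicates' near-start intronic content minus their deep intronic content was 0.350 ± 0.215 percentage points, higher in 3 of 3 replicates (exact sign-flip permutation test, two-sided, p = 0.25). Near-start intronic minus promoter content was −0.527 ± 0.472 percentage points (exact sign-flip permutation test, p = 0.25).

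Of the short elements, GAGAG and the repeat CACACACA were scarce at the centre and frequent in the shoulders. In windows of 100 bp, the letters GAGAG, the core of the site of GAGA factor, were present on either strand in 8.29% of windows at the summit, 19.8% of windows centred 150 bp to either side and 14.5% of windows centred 1000 bp away. Taken from the replicates' own summits, the share at 150 bp was 19.3%, 18.4% and 19.2% in replicates 1, 2 and 3, against 13.8%, 14.5% and 14.8% at 1000 bp. The difference of 4.58 ± 0.805 percentage points was positive in 3 of 3 replicates (exact sign-flip permutation test, two-sided, p = 0.25). CACACACA was present in 1.03% of windows at the summit, 4.99% at 150 bp and 2.898% at 1000 bp. At promoter summits GAGAG was present in 9.79%, 19.4% and 12.04% of windows at the same 3 places, and over all optimal summits in 8.99%, 18.3% and 12.5%, so this form was not limited to introns. In the replicates' own summits the share of GAGAG at 150 bp minus that at 1000 bp was larger in the other classes than in members. It was 5.86 ± 0.562 percentage points at deep intronic, 5.38 ± 1.23 at intergenic and 7.54 ± 0.449 at promoter summits (SD, n = 3 each). These windows were chosen after the effect of window size on the count of GAGAG had been seen. How far the shares of this and the other elements follow from base composition was not tested.

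The elements rich in A and T were most frequent at the summit itself. The letters TATAAAA were present in 9.54% of the central windows of 100 bp, 3.78% of those at 150 bp and 4.81% of those at 1000 bp. In the 200 bp around the summit they were found at 220 summits (16.1%), against 9.39% of flanks and 18.0% of all optimal summits. A run of 8 A was found at 287 summits (21.1%), against 14.1% of flanks and 18.9% of all optimal summits, and can overlap the other A- and T-rich elements. The triplet repeat ATAATAAT was found at 6.46%, against 4.15% of flanks and 6.22% of all optimal summits. In windows of 100 bp the run of 8 A was present in 10.7% at the summit, 6.71% at 150 bp and 7.08% at 1000 bp. Taken from the replicates' own summits, its share at 150 bp was 8.10%, 6.84% and 7.49%, against 6.68%, 7.43% and 6.91% at 1000 bp. Its shoulders were thus not lower than the sequence farther out in replicates 1 and 3.

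Elements known from the promoters of housekeeping genes were less frequent in these introns than at promoters. TATCGATA, the element shared by Dref and BEAF-32, was found at 2 of the 1363 intronic summits (0.147%), against 61 of 1695 promoter summits (3.60%) and 1.43% of all optimal summits. Deep intronic and intergenic summits held it in 0.673% and 0.288%. GGTCACAC, the core of the M1BP site, was found at 5 intronic summits (0.367%), against 37 promoter summits (2.18%) and 1.01% of all. It was as rare at deep intronic summits, with 0.561%, and at intergenic ones, with 0.385%, so the low shares were not particular to introns near a start. The nuclear receptor half-site AGGTCA was found at 5.06%, against 4.33% of flanks and 4.002% of all optimal summits. A match is only a match of letters and was not tested as a site.

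**Figure D1:**
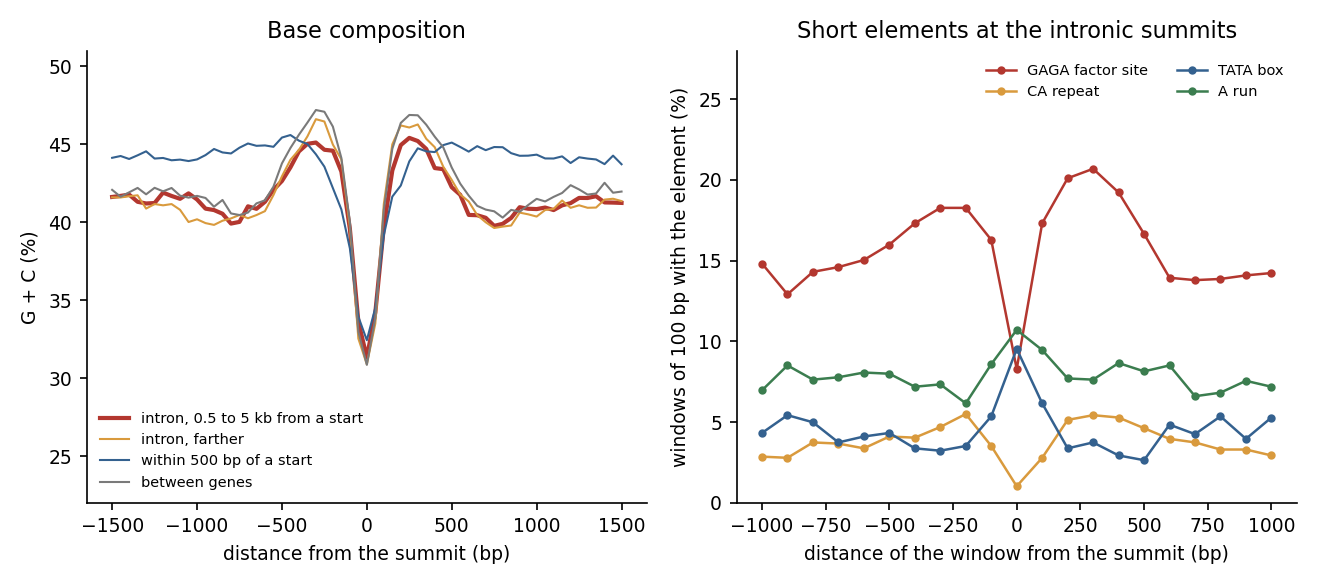
Left, mean G + C content (%) in steps of 50 bp by distance from the summit (bp), for 4 classes of optimal summits (lines). Right, percent of 100 bp windows that hold each of 4 short elements by distance of the window from the 1363 near-start intronic summits; GAGAG falls to 8.29% at the summit while TATAAAA reaches 9.54%.

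Summits were denser in introns near a start than in introns farther away. Per Mb of eligible sequence, that is sequence that meets the same rule of place, the optimal list held 60.7 summits in near-start introns and 29.5 in deeper introns. In replicates 1, 2 and 3 the density among the 5048 best peaks was 61.0, 60.9 and 60.9 per Mb in near-start introns, against 28.3, 29.2 and 28.7 in deeper introns. The ratio of near-start to deeper introns was 2.12 (mean log2 ratio 1.09 ± 0.0224, SD, n = 3), above 1 in 3 of 3 replicates (exact sign-flip permutation test, two-sided, p = 0.25). Promoters were denser still, with 115.6, 110.3 and 113.9 summits per Mb in the replicates.

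Density fell with distance within the near-start introns. It was 91.2 summits per Mb up to 1000 bp from a start (364 summits), 66.9 in the step up to 2000 bp (427), 49.0 in the step up to 3500 bp (340) and 45.2 in the step up to 5000 bp (232). Beyond the near-start range it went on falling, to 42.6 in the step up to 10000 bp, 33.7 in that up to 20000 bp and 12.8 farther away. The median distance of a member was 1708 bp. Between genes, in the same 4 steps, density was 44.1, 44.7, 31.4 and 33.4 summits per Mb.

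At equal distance from a start, introns therefore held more summits than intergenic sequence. Over the whole range up to 5000 bp the replicates had 61.0, 60.9 and 60.9 summits per Mb in introns, against 36.1, 38.4 and 35.9 between genes. The ratio of introns to intergenic sequence was 1.66 (mean log2 ratio 0.73 ± 0.0559, SD, n = 3; 3 of 3 above 1; exact sign-flip permutation test, two-sided, p = 0.25). In the step nearest to a start it was 2.10, 1.93 and 2.18 in replicates 1, 2 and 3, and in the step up to 2000 bp 1.52, 1.43 and 1.44.

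**Figure D2:**
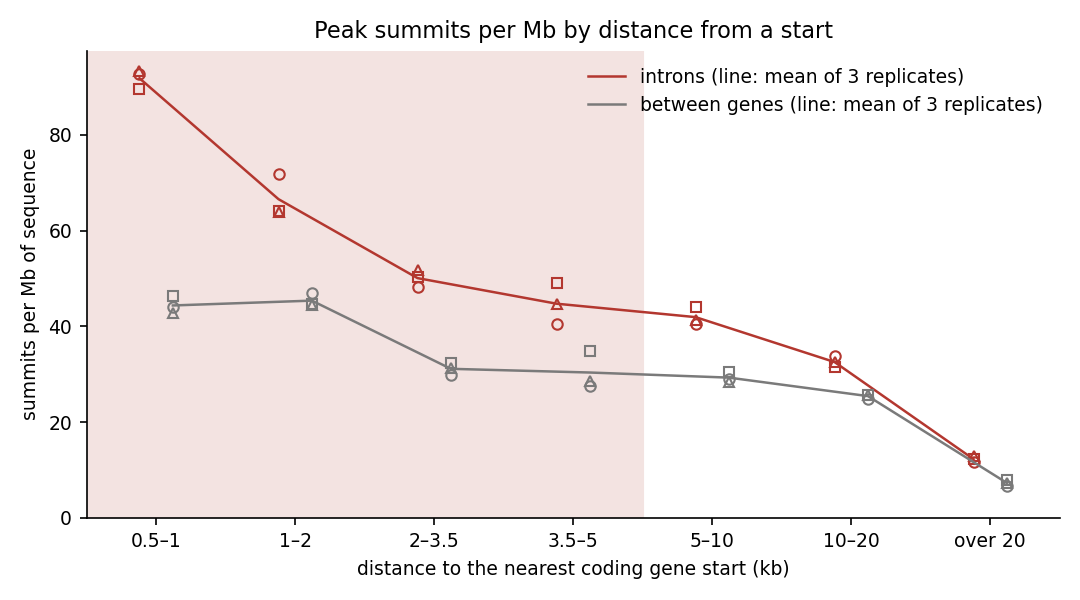
Summits per Mb of eligible sequence (vertical axis) by distance to the nearest coding gene start (kb, horizontal axis, unequal steps), in introns and between genes; points are the 3 replicates (circle, square and triangle for replicates 1, 2 and 3), lines their mean, and shading marks the range of the members. Introns lie above intergenic sequence in each step, with 91.2 against 44.1 summits per Mb of the optimal list in the step up to 1000 bp.

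First introns held most of these summits. Of the 1363, 1058 (77.6%) lay in the first intron of at least 1 coding transcript, while 58.9% of the eligible intron sequence did. The density in first introns was 80.1, 80.4 and 79.9 summits per Mb in replicates 1, 2 and 3, against 33.8, 33.0 and 33.9 in later introns. The ratio of first to later introns was 2.39 (mean log2 ratio 1.26 ± 0.0249, SD, n = 3; 3 of 3 above 1; exact sign-flip permutation test, two-sided, p = 0.25). Intron length, with which density also varied, was not held equal in this ratio or in those that follow. First introns are also closer to a start, so the same was computed within each step of distance. There the ratio was 2.28 in the step up to 1000 bp, 2.53 in that up to 2000 bp, 1.99 in that up to 3500 bp and 2.18 in that up to 5000 bp, and it was above 1 in every replicate in each of these steps. Counted by the host gene's own transcripts alone, 1054 summits (77.3%) were in a first intron, and 786 (57.7%) by its longest coding transcript, against 51.2% and 33.7% of deep intronic summits.

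Short introns held few summits. Where the shortest intron over a base was at most 500 bp long, the replicates had 11.7, 7.80 and 11.3 summits per Mb, and 21 of the 1363 summits lay there. Introns of over 2000 and up to 10000 bp held 644 summits, with 74.2, 72.9 and 74.8 per Mb in the replicates. One of the strongest members is an exception to this distribution, since the CG11050 summit lay in an intron of 140 bp. The densities by intron number, intron length and side of the start were computed after the first results had been seen.

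**Figure D3:**
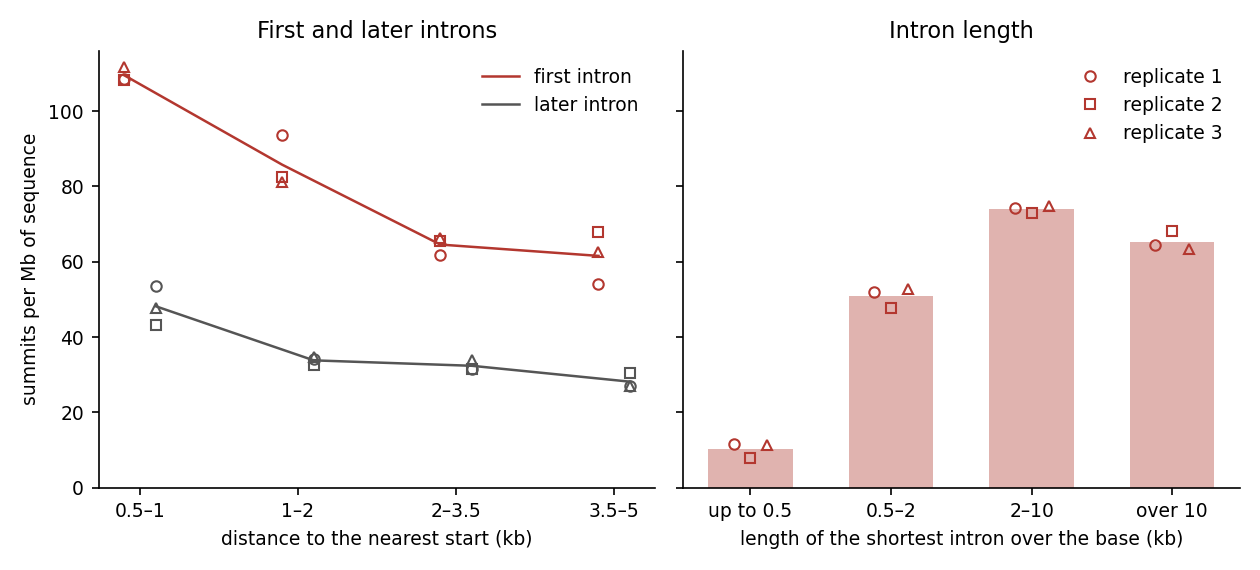
Left, summits per Mb of eligible intron by distance to the nearest start (kb) in first introns and in later introns; lines are means of 3 replicates and points the replicates. Right, the same density by length of the shortest intron over the base (kb), bars being the mean of 3 replicates; first introns lie above later ones at each distance, and introns up to 500 bp lie lowest, at 7.80 to 11.7 summits per Mb.

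For most of these summits the nearest start was one of the host gene's own. This was so for 1168 summits (85.7%), against 67.8% of deep intronic summits, and for the rest it was another gene's. Where several genes spanned a summit, the gene of the nearest start was taken as host if among them, which favours this share. The rule of distance itself asks for a start close by, and the same share over all eligible sequence was not computed. Downstream of a start of the host gene lay 836 (61.3%), and 332 (24.4%) lay upstream of one of its alternative starts. Per Mb of eligible sequence, the side downstream of the nearest start held 59.5, 59.5 and 59.2 summits in replicates 1, 2 and 3, against 64.2, 63.9 and 64.6 on the upstream side. The ratio of downstream to upstream was 0.925, below 1 in 3 of 3 replicates, but it was above 1 in 3 of 3 in the step from 1000 to 2000 bp, so its direction depended on distance. More than 1 coding gene spanned 76 of the summits, and 22 lay in an exon of a non-coding gene.

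Genes that held one of these summits also had a summit at a promoter more often. Of the 11934 coding genes with eligible intron, 864 (7.24%) span at least 1 of them. Among these, 318 (36.8%) also had a promoter summit, against 14.2% of the 11070 eligible genes that span none. Genes with more starts have more chances of a promoter summit. Among genes with a single annotated start the shares were 20.8% of 288 genes and 10.8% of 8217 genes, and among genes with 4 or more starts 63.1% of 160 and 35.5% of 276. The genes with an intronic summit were also longer, with a median of 16.8 kb against 2.35 kb, and the part of length in these shares was not tested.

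Density was higher on the X chromosome. It held 322 of the members, and the replicates had 69.1, 73.1 and 67.5 summits per Mb of eligible intron on the X chromosome, against 59.9, 58.7 and 60.2 on chromosomes 2 and 3. The ratio of the X chromosome to chromosomes 2 and 3 was 1.15, 1.24 and 1.12 (mean log2 ratio 0.23 ± 0.0770, SD, n = 3; exact sign-flip permutation test, two-sided, p = 0.25). Over all summits of every class the same ratio was 1.02, 1.05 and 1.04. The arms of chromosomes 2 and 3 also differed among themselves, with replicate means between 52.3 and 63.6 members per Mb of eligible intron. The mean on the X chromosome was 69.9. The arm with 63.6 had 34.7 summits of every class per Mb, and the X chromosome had 39.2. On the small chromosome 4 the optimal list held no member.

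Individual peaks recurred in the replicates about as often as other optimal peaks. Of the 1363 members, 928 (68.1%, Wilson 95% interval 65.6% to 70.5%, counting error only) were matched to a best peak in each of the 3 replicates, against 66.4% of all optimal peaks and 64.3% of deep intronic ones. Another 319 did so in 2 replicates, 109 in 1 and 7 in none. The optimal list was thresholded on the agreement of the same replicates, so these shares are no independent check. Summits were placed closely, with a median distance between the optimal summit and the nearest replicate summit of 14, 15 and 21 bp in replicates 1, 2 and 3. It was 15, 14 and 23 bp at deep intronic, 15, 14 and 21 bp at promoter and 18, 14.5 and 21.5 bp at intergenic summits. The optimal list was made from the same replicates, so this closeness is no independent check either. Among members, 104 peaks (7.63%) overlapped another optimal peak, and such neighbours can be matched to the same replicate peak. The share of overlapping peaks was not computed for the other classes.

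The signal of the near-start intronic summits lay between that of promoters and that of deeper introns. Signal is the authors' value per peak and was divided in each replicate by the median of its 5048 best peaks. On this scale the median member had 1.04, 1.03 and 1.03 in replicates 1, 2 and 3, against 0.938, 0.946 and 0.959 for deep intronic summits. The mean log2 ratio to deep intronic summits was 0.12 ± 0.0274 (SD, n = 3), above 0 in 3 of 3 replicates. Promoter summits had medians of 1.09, 1.10 and 1.05, and the mean log2 ratio of members to promoter summits was −0.06 ± 0.0306, below 0 in 3 of 3. Intergenic summits had 0.940, 0.989 and 0.977, and the ratio to them was 0.09 ± 0.0505 on the log2 scale. Without overlapping peaks, an alternative chosen after seeing the data, the ratio to promoter summits shrank to −0.0362 on the log2 scale, from −0.0639. Each of these comparisons gave p = 0.25 (exact sign-flip permutation test, two-sided), the smallest that 3 replicates allow.

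The differences in median were small beside the range within the class. The authors' optimal signal of members ran between 61.1 and 1153.2 with a median of 104.4, and the 25th and 75th percentiles were 77.4 and 159.4. The classes differed more at the upper end, and the 75th percentile of promoter summits was 185.7. Of the members, 9.02% were among the 500 strongest optimal peaks, against 15.2% of promoter, 5.61% of deep intronic and 6.15% of intergenic summits. Signal did not follow distance in 1 direction, with medians of 108.1, 95.5, 108.6 and 100.8 in the 4 steps of distance. The 341 strongest members averaged 33.5% ± 5.74 G + C and the 341 weakest 34.9% ± 6.76 (SD over summits).

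The strongest member lay in the first intron of ush, which encodes a FOG-family cofactor of GATA factors, and 1370 bp upstream of the nearest start, that of the zinc-finger gene cbt. Its signal was 10.3, 11.95 and 9.25 times the replicate median in replicates 1, 2 and 3. Next was the summit in CG11050, 1023 bp downstream of its start, with 9.05, 11.0 and 10.7 times. The Lk6 summit, in a gene for a kinase of the translation factor eIF4E, had 9.07, 10.3 and 11.1 times and lay 966 bp upstream of an alternative start. CG32772 followed with 9.40, 8.97 and 10.3 times. In each replicate all 4 ranked among its 15 best peaks.

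Among the next strongest members, the summit 593 bp upstream of a start of HmgZ lies in a stretch that the annotation gives to HmgZ and HmgD together, both genes for HMG-box proteins, and had 8.30, 8.27 and 6.01 times the replicate median. The summit in Trl, the gene of GAGA factor, had 7.31, 7.17 and 7.52 times, and its 200 bp held 25.5% G + C, the lowest of the 25 strongest. In chif, which encodes the activating subunit of the replication kinase Cdc7, the values were 6.40, 5.24 and 6.12. Adf1, a gene for a Myb-related transcription factor, had 4.91, 5.76 and 4.68 times with a summit 808 bp downstream of its start. Replicates differed by far less than the gap between these peaks and the median member.

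Further down the 25 strongest, Tlk, which encodes Tousled-like kinase, had 4.79, 5.35 and 5.82 times the replicate median at 2334 bp downstream of a start. The cGMP-dependent kinase gene for had 5.68, 4.77 and 5.18 times. The translational repressor gene pum had 4.68, 4.80 and 4.87 times with a summit 2443 bp upstream of an alternative start. In LpR2, a lipophorin receptor gene, the summit had 5.56, 6.36 and 4.56 times and lay in an exon of the non-coding gene lncRNA:CR46102. CG9663 had 2 optimal summits 204 bp apart that were matched to the same replicate peaks, with 6.70, 7.83 and 7.84 times.

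The remaining members of the 25 strongest had mean values down to 4.56 times the replicate median, that of LPCAT, a lysophospholipid acyltransferase gene. They lay in CG12769, CG4496, CG3726, Reph, CG9837, Mhcl, Pits, kuk, prage and norpA, of which kuk encodes a protein of the nuclear envelope and norpA the phospholipase C of phototransduction. All 25 were among the best peaks of all 3 replicates, but so were all of the 341 strongest members. The 25 were picked by the signal of a list made from the same replicates, so their recovery is no independent check. The lowest rank that any of the 25 had in a replicate was 159. A first intron held 21 of them and a later intron 4. The coefficient of variation over the replicates ranged between 1.39% for CG12769 and 22.5% for kuk.

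**Figure D4:**
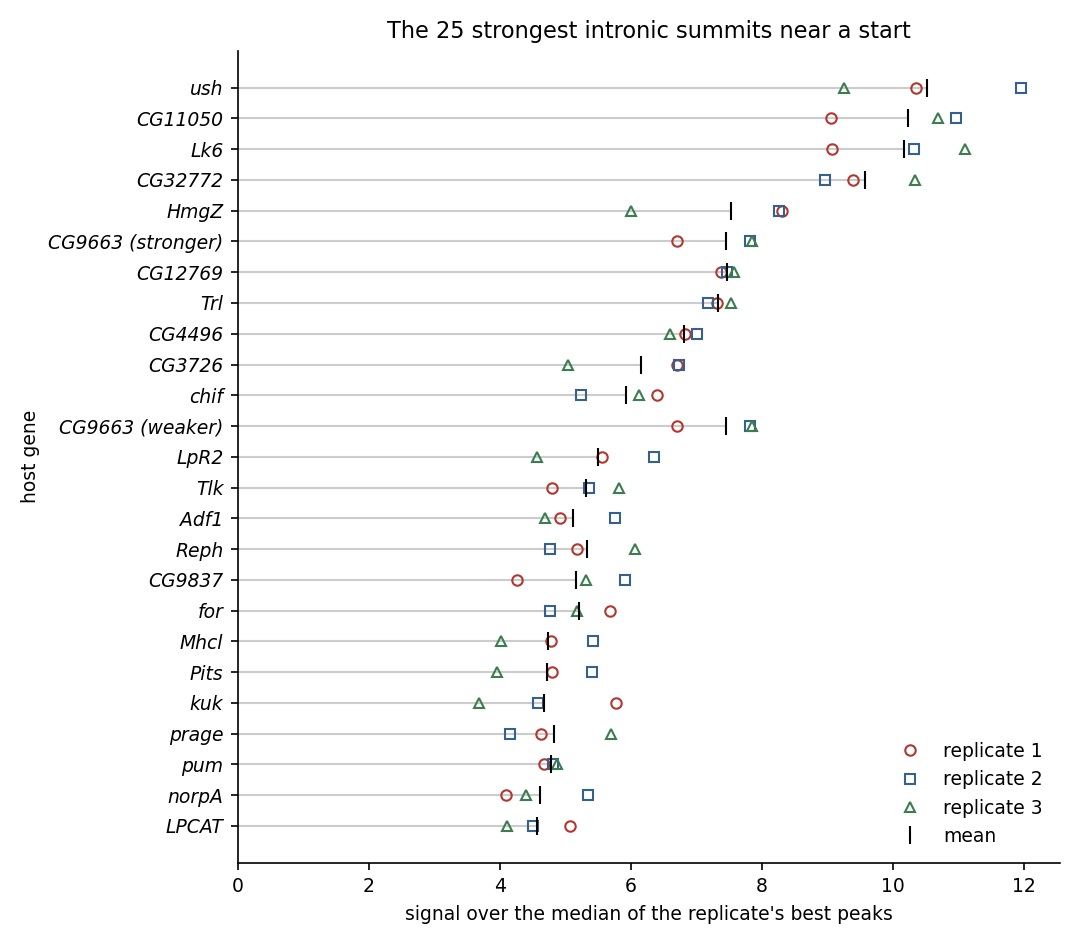
Signal over the median of the replicate's 5048 best peaks (horizontal axis) for the 25 members of highest optimal signal, 1 row per summit named by host gene and in order of optimal signal; symbols are the 3 replicates and ticks their mean. The top 4 rows reach means of 9.57 to 10.5, and 2 rows for CG9663 share the same replicate peaks.

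Some genes held many of these summits. Of the 864 genes, 556 held 1 and 308 held 2 or more. The most were in shn, a zinc-finger gene of the Dpp pathway, with 13 summits between 72.8 and 342.0 in optimal signal, and 11 of them were among the best peaks of all 3 replicates. Svil, a gene for an actin-binding protein of the villin family, and tou, which encodes a protein of chromatin remodelling, held 10 each. Tlk held 8, of which 1 was among the 500 strongest optimal peaks. The longer the eligible intron, the more room a gene has, and Svil had 69.6 kb of it, tou 20.3 kb, shn 34.5 kb and Tlk 35.2 kb.

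The body of CG1677 held 12 summits, and they were spread over the starts of smaller genes nested in or beside its introns. Upstream of unc-119 lay 4 of them, between 753 and 3037 bp from its start. Upstream of brk, the gene of a repressor of Dpp targets, lay 3 more, at 574, 778 and 2019 bp. The one at 778 bp had the highest optimal signal of these, 287.5. Its peak overlapped that at 574 bp, of optimal signal 102.4, and both were matched to the same replicate peaks. These averaged 2.78 ± 0.455 times the median (SD, n = 3). The strongest of the 12 lay in Dok, a gene for an adaptor of tyrosine kinase signalling, with 374.6 in optimal signal and 3.45 ± 0.426 times the median. Host genes are therefore a name for the place, and the nearest start can belong to another gene.

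The host genes were also counted in 12 lists of genes, chosen with earlier results of these data known. Among all 11934 coding genes with eligible intron, 864 (7.24%) held a member. Lists of developmental regulators have longer introns, with medians of up to 8.04 kb of eligible sequence against 0.228 kb for all genes, so the density per Mb is also given. Over all genes it was 60.7 summits per Mb.

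In the list of genes that respond to ecdysone or act in metamorphosis, 12 of 27 eligible genes (44.4%) held a member, with 88.6 summits per Mb. Eip78C, an ecdysone-induced nuclear receptor gene, had a summit with 4.08, 4.30 and 3.37 times the replicate median in replicates 1, 2 and 3, nearest to the start of CG43218. ImpL2, which encodes a secreted binding protein of insulin-like peptides, had 3.86, 3.77 and 4.11 times at 1083 bp upstream of a start. The zinc-finger gene ken had 2.62, 3.06 and 2.41 times. The others were vri, gce, Eip74EF, EcR, Eip75B, Hr4, ftz-f1, br and Hr3, named after their values were seen. For 8 of the 12 the strongest member was among the best peaks of all 3 replicates, but not for Hr4, ftz-f1, br and Hr3. That of Hr3 had 0.567, 0.171 and 1.13 times the replicate median. The strongest members in EcR, Eip75B and br lay nearest to starts of CG14589, CG32192 and Mur2B. Of 20 eligible genes of ecdysone synthesis and the prothoracic gland, none held a member. That list is small and had 55.8 kb of eligible intron in all, with a median of 0.534 kb per gene. Whether its 0 differs from all genes, at 7.24% and 60.7 summits per Mb, was not tested.

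The EGFR and Ras list had the highest share of the 12, with a member in 11 of 21 genes (52.4%) and 171.9 summits per Mb. In this list aop, an ETS repressor gene, had 2.43, 1.87 and 2.37 times the replicate median, Src64B 1.64, 1.68 and 2.74, and the receptor gene Egfr 1.87, 1.29 and 2.55. For Src64B and Egfr replicate 3 was the highest. In the TGF-beta, JAK/STAT and Toll list 10 of 23 genes (43.5%) held a member, with 186.5 summits per Mb. Of the 25 summits of this list, 13 lay in shn, which had 34.5 kb of its 134.1 kb of eligible intron. There the NF-kappaB gene Dif had 3.18, 3.29 and 3.27 times, shn 3.02, 3.44 and 3.16, and Stat92E 1.61, 2.44 and 1.98.

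In the Wnt and Hedgehog list 9 of 21 genes (42.9%) held a member, at 122.9 summits per Mb. The glypican gene dlp had 2.62, 2.74 and 3.01 times the replicate median, the kinase gene sgg 2.16, 2.71 and 2.79, and nkd, a gene of an inhibitor of Wnt signalling, 2.37, 2.42 and 2.16. Of 15 Notch pathway genes 5 (33.3%) held a member, at 107.1 summits per Mb. The ubiquitin ligase gene neur stood highest with 3.73, 4.38 and 5.21 times, followed by the coactivator gene mam with 2.89, 2.95 and 3.60 and the glycosyltransferase gene fng with 1.17, 1.37 and 0.668. Of the insulin, TOR and nutrient genes 8 of 23 (34.8%) held one, at 181.8 summits per Mb. After Lk6, the hypoxia factor gene sima had 2.04, 2.48 and 2.27 times, and the lipase gene bmm 1.71, 1.85 and 1.68.

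The chromatin list had the highest density, 222.5 summits per Mb, with 9 of 34 genes (26.5%). This density rests on 20 summits in 89.9 kb of eligible intron, and kis held 5 of them and Trl 4. HmgD and HmgZ were counted as 2 of the 9 genes, although they have the same strongest summit. Its strongest members were those of HmgZ with HmgD and Trl described above, and the next was in trx, a gene of a histone methyltransferase, with 3.59, 3.09 and 2.64 times the replicate median. In the list of adhesion and cytoskeleton 8 of 25 genes (32%) held a member, at 91.7 summits per Mb. The polarity gene crb had 3.74, 3.29 and 3.44 times, the cofilin gene tsr 3.62, 2.43 and 2.66, and mbc 1.87, 1.79 and 1.71.

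Muscle and neuronal genes had densities below that of all genes, but their shares of genes with a member were not below the 7.24% of all genes. The densities rest on 4 muscle summits, 3 of them in mew, and 6 neuronal summits. Of 24 muscle genes 2 (8.33%) held a member, the integrin gene mew with 1.06, 1.60 and 1.65 times the replicate median and Zasp52 with 0.722, 0.654 and 0.249, at 35.9 summits per Mb. Of 20 neuronal genes 5 (25%) held one, at 26.9 summits per Mb, with fru at 1.17, 1.18 and 1.37 times, elav at 0.904, 0.867 and 1.43, and dlg1 at 1.37, 0.863 and 0.775. Of 22 cuticle and chitin genes 4 (18.2%) held a member, at 71.6 summits per Mb. There ckd had 2.06, 1.15 and 1.57 times, dyl 1.74, 1.17 and 1.72, and dpy 1.11, 1.44 and 1.02. These shares and densities are descriptions of the lists and no test of them was made. The densities were not matched on distance to a start, intron number or intron length.

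**Figure D5:**
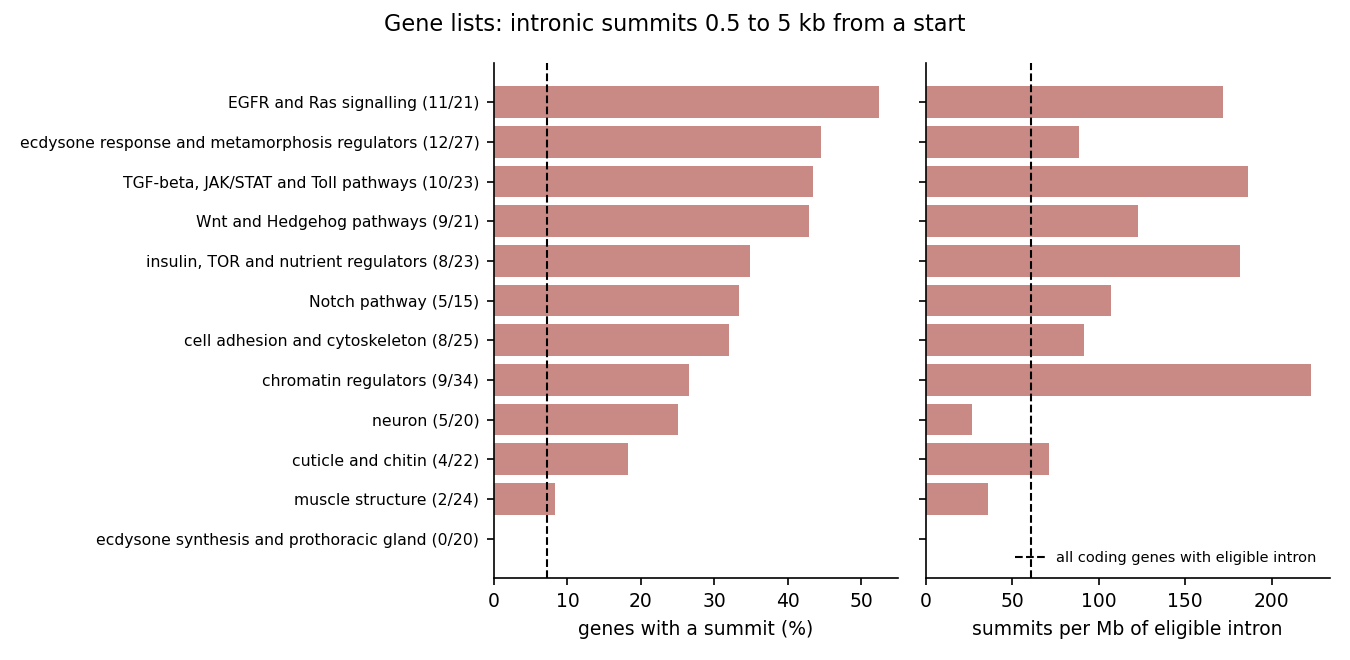
For 12 gene lists (rows, with genes holding a member over eligible genes), percent of eligible genes that hold a near-start intronic summit (left) and summits per Mb of their eligible intron (right); dashed lines are all coding genes with eligible intron, 7.24% and 60.7 per Mb. The EGFR and Ras list has the highest share at 52.4% and the chromatin list the highest density at 222.5 per Mb, while the list of ecdysone synthesis is at 0 in both.

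The members closest to the limits of distance had mean signals between 0.700 and 1.26 times the replicate median. Just inside lay summits near CG45544 at 502 bp, with 0.955, 0.940 and 1.88 times the replicate median, and near yin at 504 bp, with 0.889, 0.389 and 0.823. Just outside, at 498 and 499 bp, the summits near tay and CG43192 had means of 0.939 ± 0.302 and 0.964 ± 0.160 times (SD, n = 3). At the upper limit, the summits near Dnaaf5 at 4969 bp and ush at 4986 bp had means of 0.784 ± 0.105 and 0.848 ± 0.382, while those near Pdk and Nuak, both at 5001 bp, had 1.65 ± 0.577 and 1.33 ± 0.330.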

How the data were processed

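Ouib-GFP binding was measured by chromatin immunoprecipitation and sequencing in 3 samples labelled as biological replicates of 1 group. The files used are peak lists. Per the file lists deposited by the authors, a control alignment entered each replicate's calls and those of the pooled list, and the optimal list was thresholded from these. Which aligner and caller made them is not given in the sources used here. A peak has the signal deposited by the authors, of unstated scale, and a −log10 q-value also deposited by them. In the optimal list 68.1% of peaks share the highest −log10 value of 3.84, so signal was used to rank. Depth is unknown, since peak lists hold no read counts, so precision rests on the spread of the 3 replicates. No pair of replicate lists shared more than 1 identical interval.

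Coordinates are 1-based on dm6. Gene models came from Ensembl release 115 (BDGP6.54). The sequence was NCBI's copy of the same assembly. Each replicate was reduced to its 5048 best of 30000 peaks, and overlap meant 1 bp or more. A peak absent from a replicate counted as 0. Classes were compared as log2 ratios within replicates by a two-sided exact sign-flip permutation test over the replicates. Densities are summits per Mb of sequence, unread bases left out, that meets the rule. The 14 elements were searched on both strands.

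The members, gene lists, elements and tests were chosen with earlier results of these data known. The text names the 25 strongest members, the 5 host genes with most members, the 3 strongest genes of each list, and the 2 summits on each side of each limit. Sequences are shown for the 12 strongest outside one chromosome arm and for the strongest member of each list where it was not on that arm or already shown. All 281 listed genes were matched, 4 of them only after an older symbol had been replaced by that of the annotation. Alternatives covered distance limits, number of peaks, scaling, overlap, gene models, window size and each replicate left out. Scripts in Python 3.11.15 (numpy 2.4.6, scipy 1.17.1, pandas 2.3.3, matplotlib 3.10.9) were tested on simulated data.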

Additional observations from a re-analysis of the deposited data

How the results depend on the processing

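The number of members was 123 among the 500 strongest optimal peaks and 562 among the 2000 strongest, since fewer peaks enter. With an upper limit of 10000 bp it was 1820, and it was between 1007 and 1049 when only peaks found in both other replicates were kept. The share of each replicate's best peaks that lie in these introns was 28.1% with the 2000 best peaks and 26.2% with the 10000 best, against 27.1% ± 0.0303 (SD, n = 3) with 5048. Recovery in all 3 replicates was 94.1% with the 10000 best peaks, and the share in a first intron was 57.7% by the longest transcript. The signal ratios kept their direction with ranks, without absent peaks, without each replicate, and, in alternatives chosen after seeing the data, without the X chromosome and without overlapping peaks. Taken on ranks, another scale, the log2 ratios were 0.20 to deep intronic, −0.10 to promoter and 0.15 to intergenic summits. In windows of 400 bp the difference of summit minus flank changed sign for GAGAG (4.15 percentage points), CACACACA (1.58), CAGGTAG (0.477), AGGTCA (−0.110) and TATATATA (−0.110), and such windows take in the shoulders. The G + C difference was −9.16 percentage points in 100 bp and −2.30 in 400 bp. No list count changed by more than 1.5 times when summits were given to the gene of the nearest start, except that of muscle, at 1 gene in place of 2. The exact permutation test over 3 replicates cannot go below p = 0.25, and control libraries were not analysed here.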

Other observations

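Below the optimal list, the pooled list held 24952 weaker peaks, of which 6123 (24.5%) had their summit in near-start introns by the same rule. The highest signal among these was 60.9, just under the 61.1 of the weakest member. Across the 1363 members, the scaled signals of replicates 1 and 2 had a Spearman's rho of 0.763, those of replicates 1 and 3 one of 0.748, and those of replicates 2 and 3 one of 0.759. Across deep intronic summits it was 0.687, 0.681 and 0.694. Across promoter summits it was 0.764, 0.780 and 0.771, and across all optimal summits 0.736, 0.734 and 0.745. Peaks share their libraries and are not independent replicates, so these are descriptions. Another optimal summit lay within 1000 bp of 351 members (25.8%), and 10 of the 25 strongest had such a neighbour. The same share was not computed for the other optimal summits, so neighbours cannot be called particular to the members.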
